A study of Rattus norvegicus with 12 samples.

Results

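The insulin-like growth factor (IGF) axis was described in kidneys of rats with L-NAME-induced nephropathy through 10 genes chosen by symbol: the ligands Igf1 and Igf2, the receptor Igf1r and the binding proteins Igfbp1 to Igfbp7. All 10 were measured, each by 1 probeset, among the 18166 genes analysed. The animals were male Sprague-Dawley rats of 250 g. They drank water with 6 g/L NaCl and received L-NAME, an inhibitor of nitric oxide synthases that causes hypertension, at a daily dose of 15 mg/kg until the urinary protein excretion ratio exceeded 1 g/mmol. Kidneys were taken at that peak (W0), or from rats with the same treatment 1 week (W1) or 5 weeks (W5) after L-NAME was stopped. Age-matched rats without L-NAME served as controls (CTL), and the labels do not state whether these drank NaCl. RNA of a piece of kidney from each of 3 rats per group was hybridized on 12 Affymetrix Rat Gene arrays. The stop of L-NAME was thus set by proteinuria, so that the length of treatment could differ between rats. Groups W1 and W5 were set by the time after it. Each array averages over all cell types of the tissue.

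IGF1 is made in the liver under the control of growth hormone, and also locally in tissues, the kidney among them. It acts through a receptor tyrosine kinase, encoded by Igf1r, which signals through the insulin receptor substrates, PI3K and AKT. IGF-binding proteins hold the ligands in the circulation and in tissues, and proteases release the ligands by cleaving them. Expression of Igfbp1 is known to be repressed by insulin through FOXO transcription factors, and to be raised by fasting, hypoxia and cellular stress.

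Levels are log2 values after RMA (robust multi-array average, a normalization of Affymetrix probe intensities), and 1 unit is thus a 2-fold difference in signal. Differences were tested with limma, in 1 fit of all 4 groups, and calls were made at an adjusted p under 0.05 (Benjamini-Hochberg over all 18166 genes). Array medians lay between 5.75 and 5.92 over all 20944 probesets. Over the genes analysed they lay between 5.83 and 6.02, with W1 replicate 1 the highest. The precision is limited by 3 arrays per group. W0 replicate 1 was least like its group (mean r 0.983 with the other W0 arrays, against 0.985 to 0.991 for the other 11 arrays). The kidney markers Slc34a1, a phosphate transporter of the proximal tubule, and Umod, which encodes uromodulin, had group means of 11.0 or more in every group.

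At the peak of the disease 3 of the 10 genes were called against CTL, where 9.4% of all genes were called. Igfbp1 and Igf1r rose (4.99% of all genes were called higher), and Igf1 fell (4.41% were called lower). No gene of the axis was called in W1 against CTL (3.02% of all genes, 2.23% higher and 0.787% lower) or in W5 against CTL (0% of all genes). In the last comparison limma called 0 genes in all, while 1333 genes, none of them from the axis, had an unadjusted p under 0.05. The median log2 difference of the 10 genes was -0.01 in W0, -0.04 in W1 and 0.07 in W5 against CTL, beside -0.01, 0.03 and -0.02 for all genes. The levels of W0 and CTL kidneys did not overlap for 3 of the 10 genes (26.5% of all genes), those of W1 and CTL for 4 (22.1%), and those of W5 and CTL for 1 (14.4%). Over the 4 groups together, the moderated F test of limma called Igfbp1 (adjusted p = 4.26e-05) and Igf1 (adjusted p = 0.0106), where 6.72% of all genes were called. For Igf1r its adjusted p was 0.0737.

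**Figure D1:**
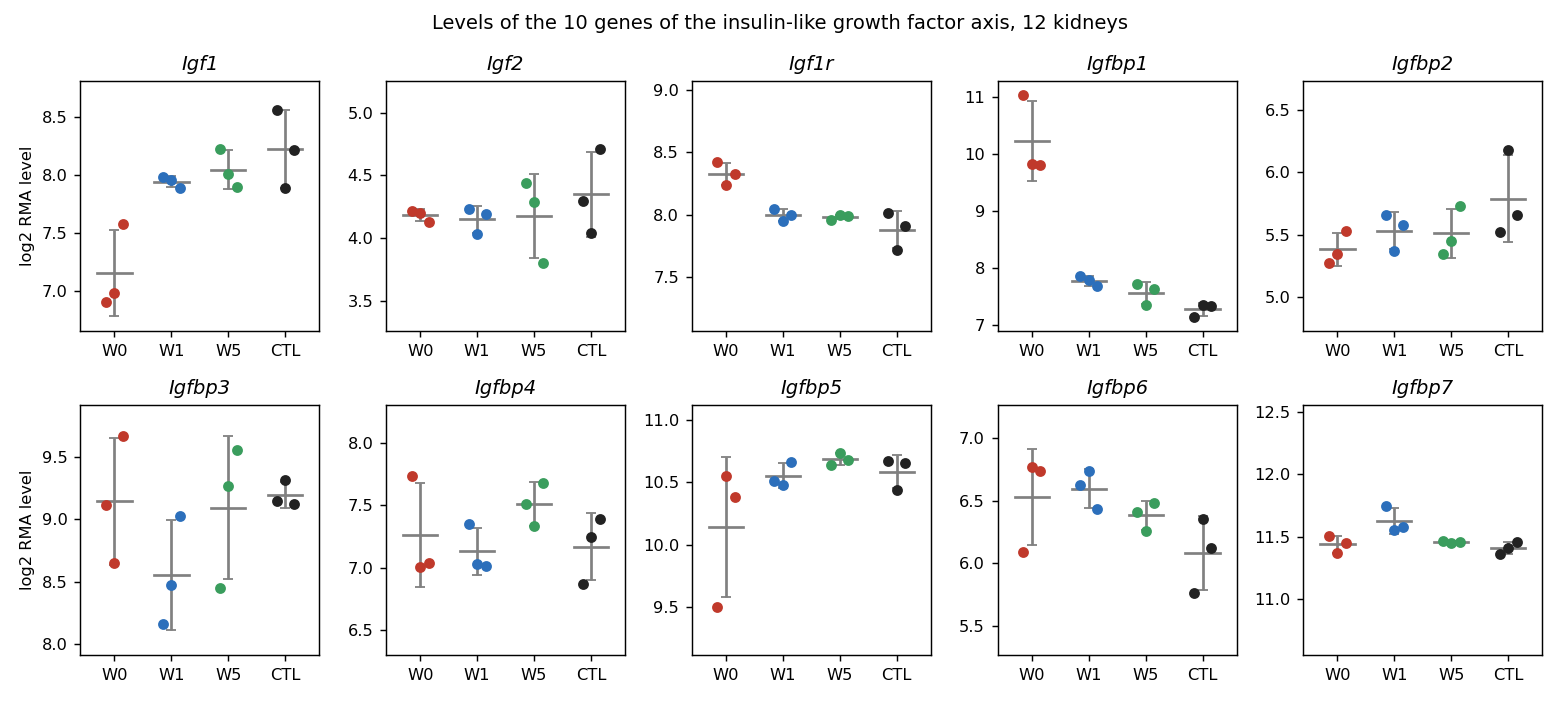
Log2 RMA level of each of the 10 genes in 12 kidneys, 3 each of W0, W1, W5 and CTL. Points are arrays, horizontal lines are group means, bars are ± SD, and each panel has its own level axis. Igfbp1 lies between 9.81 and 11.03 in W0 kidneys and below 8 in all others, and Igf1 is lower in the 3 W0 kidneys than in the other 9.

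Igfbp1, the binding protein under insulin control, had the largest change of the axis. Its log2 level was 11.03, 9.81 and 9.81 in W0 kidneys, 7.86, 7.79 and 7.68 in W1 kidneys, 7.72, 7.35 and 7.63 in W5 kidneys, and 7.14, 7.35 and 7.34 in CTL kidneys. All W0 kidneys were far above every other kidney, and W0 replicate 1 was the highest. The mean was 10.22 ± 0.70 in W0 and 7.28 ± 0.12 in CTL (SD, n = 3 each), a log2 difference of 2.94 (SE 0.25, 95% confidence interval 2.41 to 3.47, 7.67-fold, limma adjusted p = 1.52e-05). Of all 18166 genes only 6 had a higher log2 difference in W0 against CTL. Without W0 replicate 1 the log2 difference was 2.53.

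Igfbp1 was lower again after withdrawal of L-NAME. Compared to W0, it fell by 2.44 on the log2 scale in W1 kidneys (limma adjusted p = 0.000467) and by 2.65 in W5 kidneys (limma adjusted p = 5.31e-05). It was the only 1 of the 10 genes called in W1 against W0 (0.528% of all genes), and with Igf1 1 of 2 called in W5 against W0 (5.04%). None was called in W5 against W1 (0.286%), where limma called 52 genes in all. Mean levels were 7.78 ± 0.09 in W1 and 7.57 ± 0.19 in W5 (SD, n = 3 each). The 3 W1 kidneys, and also the 3 W5 kidneys by a margin under 0.01, were above all CTL kidneys. The log2 difference from CTL was 0.50 in W1 (95% confidence interval -0.03 to 1.03, limma adjusted p = 0.35) and 0.29 in W5 (95% confidence interval -0.24 to 0.83, limma adjusted p = 0.813). Without W0 replicate 1, W1 against CTL passed the threshold at the same difference of 0.50 (limma adjusted p = 0.0372). By mean level the order was W0, W1, W5 and CTL. W1 and W5 overlapped (W5 against W1: log2 difference -0.21, limma adjusted p = 0.796), and W5 and CTL did not overlap but did not pass the test.

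Igf1, the growth-promoting ligand, ran the other way. Its log2 level was 6.90, 6.98 and 7.58 in W0 kidneys, 7.98, 7.96 and 7.89 in W1 kidneys, 8.23, 8.01 and 7.90 in W5 kidneys, and 8.56, 7.89 and 8.22 in CTL kidneys. The W0 kidneys were the 3 lowest, with W0 replicate 3 nearest to the rest, and the levels of the other 3 groups overlapped. The mean was 7.15 ± 0.37 in W0 and 8.22 ± 0.34 in CTL (SD, n = 3 each), a log2 difference of -1.07 (SE 0.19, 95% confidence interval -1.48 to -0.67, limma adjusted p = 0.00277). The signal in W0 was thus 2.1-fold lower than in CTL. In no setting tried was this call lost (adjusted p 0.000885 to 0.0233).

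Igf1 was higher in W5 than in W0 kidneys, with 8.05 ± 0.17 and 7.15 ± 0.37 (SD, n = 3 each), a log2 difference of 0.89 (95% confidence interval 0.49 to 1.3, 1.86-fold, limma adjusted p = 0.014). This call was lost without W0 replicate 2 (0.81, adjusted p = 0.0557), without W5 replicate 1 (0.80, adjusted p = 0.0602) and without W5 replicate 2 (0.91, adjusted p = 0.0511). In W1 against W0 the log2 difference was 0.79 (limma adjusted p = 0.0908), which passed the threshold only without W0 replicate 3 (1.00, adjusted p = 0.0159). Compared to CTL, the log2 difference of Igf1 was -0.28 in W1 (95% confidence interval -0.69 to 0.13, limma adjusted p = 0.526) and -0.18 in W5 (95% confidence interval -0.58 to 0.23, limma adjusted p = 0.862).

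Among the genes of the axis, Igfbp1 and Igf1 were called in more than 1 comparison, and for this reason their promoters are shown. They are RefSeq sequences of the build GRCr8, from 250 bases before to 50 bases after the start of the gene, on the plus strand in both cases. Capitals mark CAAAACA, the core of the insulin response element that FOXO factors are known to bind in the Igfbp1 promoter.
Igfbp1, chr14:86261027-86261326: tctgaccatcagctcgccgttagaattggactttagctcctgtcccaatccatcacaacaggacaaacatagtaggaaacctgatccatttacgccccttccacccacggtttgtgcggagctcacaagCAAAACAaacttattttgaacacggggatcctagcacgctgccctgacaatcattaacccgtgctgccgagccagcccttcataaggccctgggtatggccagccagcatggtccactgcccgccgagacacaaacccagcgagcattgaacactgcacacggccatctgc
Igf1, chr7:24172282-24172581: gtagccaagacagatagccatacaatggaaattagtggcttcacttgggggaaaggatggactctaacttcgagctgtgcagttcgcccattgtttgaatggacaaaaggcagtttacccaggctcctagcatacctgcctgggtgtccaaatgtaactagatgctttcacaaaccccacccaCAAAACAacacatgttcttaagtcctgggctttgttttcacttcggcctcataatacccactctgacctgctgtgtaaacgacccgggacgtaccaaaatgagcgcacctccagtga
The match begins 121 bases before the start in Igfbp1 and 67 bases before it in Igf1. Among the 10 genes these were the 2 with CAAAACA on either strand, and 6.28% of all 33469 promoters hold it. The forkhead motif GTAAACA, which shares its last letters AAACA with it, was found in Igfbp6 (3.78% of promoters), and ACGTG, the core of the hypoxia response element, in Igf1r, Igf2, Igfbp2 and Igfbp7 (19.3%). Neither TGACG (21.2%) nor GATAAG (7.05%) was found in a promoter of the axis. A match describes these letters and no binding was measured.

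**Figure D2:**
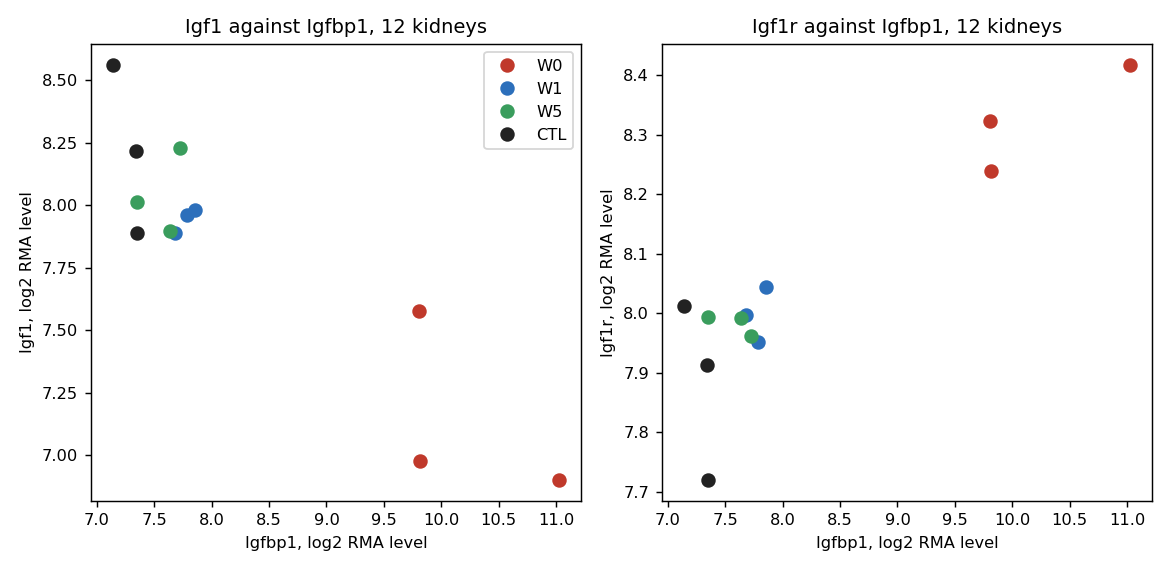
Log2 RMA level of Igf1 (left) and of Igf1r (right) against that of Igfbp1 in the same 12 kidneys, coloured by group. The 3 W0 kidneys are apart from the rest, with high Igfbp1, low Igf1 and high Igf1r, and the W1, W5 and CTL kidneys overlap for Igf1 and Igf1r.

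Igf1r, the receptor, had log2 levels of 8.42, 8.24 and 8.32 in W0 kidneys, 8.04, 7.95 and 8.0 in W1 kidneys, 7.96, 7.99 and 7.99 in W5 kidneys, and 8.01, 7.72 and 7.91 in CTL kidneys. The 3 W0 kidneys were above all others, and the other groups overlapped. The mean was 8.33 ± 0.09 in W0 and 7.88 ± 0.15 in CTL (SD, n = 3 each), a log2 difference of 0.44 (SE 0.11, 95% confidence interval 0.21 to 0.68, 1.36-fold, limma adjusted p = 0.019). This call was lost without CTL replicate 2 (0.36, adjusted p = 0.0881), without W0 replicate 1 (0.40, adjusted p = 0.0589), without W0 replicate 3 (0.45, adjusted p = 0.054) and with the 2 groups fitted alone (adjusted p = 0.0727). The log2 difference was 0.12 in W1 (limma adjusted p = 0.674) and 0.10 in W5 (limma adjusted p = 0.862) against CTL. Against W0, it was -0.33 in W1 (limma adjusted p = 0.236) and -0.34 in W5 (limma adjusted p = 0.0932).

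Igf2, the fetal growth factor, was near the background of the arrays in all groups. Its level was 4.13 to 4.21 in W0, 4.03 to 4.23 in W1, 3.80 to 4.44 in W5 and 4.04 to 4.71 in CTL. For comparison, 67 olfactory receptor genes (symbols that start with Olr), taken as a background, had a median level of 3.52 and a 95th percentile of 5.28. No order of the groups can be read for Igf2, and its log2 difference from CTL was -0.17 in W0 (limma adjusted p = 0.661) and -0.20 in W1 (limma adjusted p = 0.657). Without CTL replicate 3 that of W0 turned to 0.01 (adjusted p = 0.983).

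None of the other binding proteins, Igfbp2 to Igfbp7, was called in any of the 6 comparisons between groups. Igfbp6, which binds IGF2 with preference, had levels of 6.09, 6.77 and 6.74 in W0, 6.62, 6.74 and 6.43 in W1, 6.41, 6.26 and 6.48 in W5, and 5.76, 6.35 and 6.12 in CTL. The W1 kidneys were all above the CTL kidneys, while W0 replicate 1 was within their range. The log2 difference from CTL was 0.52 in W1 (95% confidence interval 0.11 to 0.92, limma adjusted p = 0.175) and 0.45 in W0 (95% confidence interval 0.05 to 0.85, limma adjusted p = 0.165). Without W0 replicate 1 the W0 difference was 0.67 and passed the threshold (adjusted p = 0.0229).

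Igfbp5, which binds to extracellular matrix, had levels of 9.50, 10.55 and 10.38 in W0, 10.51, 10.48 and 10.66 in W1, 10.64, 10.73 and 10.68 in W5, and 10.67, 10.44 and 10.65 in CTL. W0 replicate 1 alone was far below the rest. The log2 difference of W0 from CTL was -0.44 (95% confidence interval -0.88 to -0.00, limma adjusted p = 0.219) and -0.12 without that array (adjusted p = 0.665). Igfbp2 had a level of 5.28 to 5.53 in W0 and 5.52 to 6.18 in CTL, with a log2 difference of -0.40 (limma adjusted p = 0.166). CTL replicate 2 was the highest array, and without it the difference was -0.21 (adjusted p = 0.523).

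Igfbp3, the main carrier of IGFs in the circulation, spread widely within the L-NAME groups. It ranged over 8.65 to 9.67 in W0, 8.16 to 9.03 in W1 and 8.45 to 9.56 in W5, but over 9.12 to 9.31 in CTL. The W1 kidneys were all below the CTL kidneys, and the log2 difference was -0.64 (95% confidence interval -1.27 to -0.01, limma adjusted p = 0.299). Igfbp3 neighbours Igfbp1 on chromosome 14 in the RefSeq annotation. In W0 against CTL, where Igfbp1 differed by 2.94, the log2 difference of Igfbp3 was -0.05 (95% confidence interval -0.67 to 0.58, limma adjusted p = 0.954). Its sign turned to 0.01 when quantile normalization was repeated (adjusted p = 0.993), to 0.01 without CTL replicate 2 (adjusted p = 0.993) and to 0.20 without W0 replicate 2 (adjusted p = 0.774).

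Igfbp4, a binding protein that inhibits IGF action, had levels of 7.01 to 7.74 in W0, 7.02 to 7.35 in W1, 7.33 to 7.68 in W5 and 6.87 to 7.39 in CTL, with overlap of every group with CTL. The log2 difference of W5 from CTL was 0.34 (95% confidence interval -0.08 to 0.76, limma adjusted p = 0.719) and 0.19 without CTL replicate 1 (adjusted p = 0.903). Igfbp7, a secreted relative with low affinity for IGFs, varied least of all binding proteins between groups. Its level was 11.55 to 11.75 in W1 and 11.36 to 11.46 in CTL, without overlap, and the log2 difference was 0.22 (95% confidence interval -0.00 to 0.44, limma adjusted p = 0.319).

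**Figure D3:**
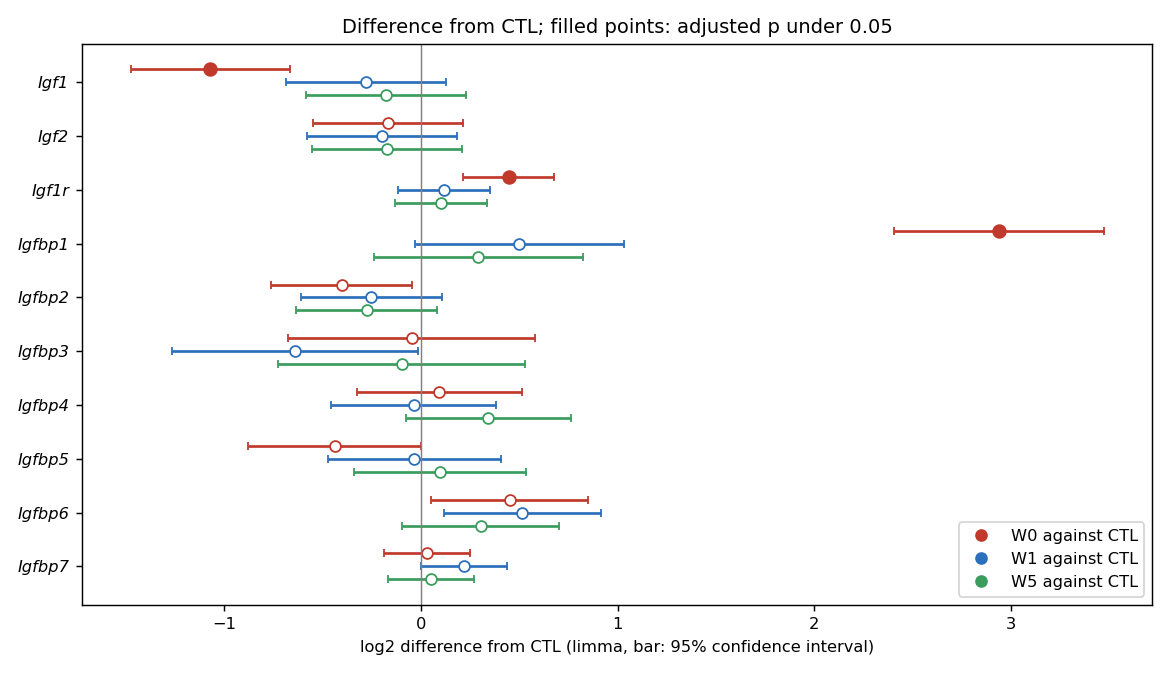
Log2 difference from CTL of each of the 10 genes in W0, W1 and W5 (limma, 3 arrays per group), with 95% confidence intervals. Filled points passed an adjusted p of 0.05. Only Igf1, Igf1r and Igfbp1 in W0 are filled, and Igfbp1 in W0 lies at 2.94, far from all other points.

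Levels of cell type markers shifted alongside these changes. In bulk tissue, fewer cells of a type and less RNA per cell cannot be told apart. Over all genes, 4.99% were called higher and 4.41% lower in W0 against CTL. In W1 against CTL these shares were 2.23% and 0.787%. Of 10 proximal tubule markers, 6 fell in W0 and 2 in W1 against CTL, and their mean level per array was 9.68 to 9.91 in W0, 9.90 to 10.24 in W1 and 10.21 to 10.42 in CTL. Cubn (group means of 10.54 in W0 and 10.32 in CTL) and Slc5a12 (9.09 and 8.98) were higher in W0, without a call. Of 10 macrophage markers, 8 rose in W0 and 8 in W1, and their mean level was 6.65 to 7.24 in W0, 6.72 to 7.07 in W1 and 5.82 to 5.9 in CTL. Adgre1 had a lower group mean in W0 (5.61) than in CTL (5.96), without a call. Of 8 fibroblast markers, 6 rose in W0 and 4 in W1, with a mean level of 6.42 to 7.02 in W0, 6.93 to 7.17 in W1 and 5.98 to 6.20 in CTL. The neutrophil list and that of the thick ascending limb and distal tubule had calls against CTL in W0 but none in W1. So did the lists of collecting duct, podocyte, smooth muscle and pericyte, and hepatocyte (given below). Of 8 collecting duct markers, Aqp3 rose (0.63) and Atp6v1b1 fell (-0.47) in W0. Of 6 measured podocyte markers Plce1 rose (0.57), and of 6 measured smooth muscle and pericyte markers Des rose (0.76). Of 7 neutrophil markers, S100a8 (2.67) and S100a9 (2.18) rose in W0. The mean level of the list was 5.51 to 6.02 in W0, 4.24 to 5.93 in W1 and 4.41 to 4.53 in CTL. Lcn2 had a group mean of 9.24 in W0 and 6.20 in CTL, without a call. The higher list mean in W0 rested mostly on S100a8, S100a9 and Lcn2. Mpo, Elane, Cxcr2 and Csf3r were not called, and the median log2 difference of the list was 0.36 in W0 against CTL. Of 8 markers of the thick ascending limb and distal tubule, Egf and Umod fell in W0, and the mean level was 8.32 to 8.49 in W0, 8.44 to 8.90 in W1 and 8.76 to 8.83 in CTL. In the endothelium list Ehd3 fell in W0 (-0.53) and in W1 (-0.63, limma adjusted p = 0.0225) against CTL. In the adipocyte list Cfd rose in W0 (0.89) and in W1 (0.84, limma adjusted p = 0.0442), while Cidec fell in W0 (-0.93). In the lymphocyte list Cd4 rose in W1 (1.12, limma adjusted p = 0.0319). No marker of any list was called in W5 against CTL, where no gene was called at all. The part of these shifts in the changes of Igfbp1, Igf1 and Igf1r was not tested.

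The liver is the main source of circulating IGF1 and IGFBP1. None of 10 measured hepatocyte markers rose in W0 against CTL (4.99% of all genes), and 1 fell (4.41% of all genes). This was Cyp2e1, which the kidney also expresses, with a mean level of 7.55 in W0 and 8.48 in CTL. Apob had 5.24 in W0 and 5.39 in CTL, and the other measured markers had means below the 95th percentile of the olfactory receptor genes (5.28) in both groups. The mean level of the list was 4.67 to 4.91 in W0 and 4.77 to 4.84 in CTL. Alb, which encodes albumin, had a mean level of 3.89 in W0 and 4.06 in CTL, within the range of the olfactory receptor genes.

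Genes with the pattern most like that of each called gene were sought over the 12 arrays, as a description in which the group differences are shared by all points. Nearest to Igfbp1 were Pdk4, which encodes a kinase that inhibits pyruvate dehydrogenase (Pearson r 0.975), the lipid droplet gene Plin2 (0.973) and the transcription factor gene Stat3 (0.972). Nearest to Igf1 were Gga2 (0.956), Phkb (0.939) and Egfl6 (0.934). Nearest to Igf1r were Itpkc (0.953), Galnt4 (0.950) and Crybg3 (0.943).

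Among the genes that act on IGF-binding proteins were 10 proteases, inhibitors and ternary complex genes. Of these, 3 rose in W0 (4.99% of all genes) and 3 in W1 (2.23%) against CTL, and none was called lower. None was called in W5, where no gene was called at all. The median of the list was 0.49 in W0, 0.14 in W1 and 0.21 in W5. Adamts1, which encodes a secreted metalloproteinase, had levels of 10.11, 10.18 and 10.43 in W0, 9.87, 9.75 and 9.42 in W1, 8.19, 8.0 and 8.10 in W5, and 7.91, 7.43 and 7.01 in CTL. Its log2 difference from CTL was 2.79 in W0 (limma adjusted p = 2.43e-06) and 2.23 in W1 (limma adjusted p = 4.40e-05), and it was thus still called at 1 week. Htra3, a serine protease gene, rose by 0.80 in W0 and 0.79 in W1 (limma adjusted p = 0.00234 and 0.00848). Its mean level was 5.85 in W0, 5.84 in W1 and 5.05 in CTL. That of CTL was below the 95th percentile of the olfactory receptor genes (5.28). Adam12, whose product cleaves IGFBP3 and IGFBP5, rose by 1.13 in W1 (limma adjusted p = 0.0011). Htra1 rose by 0.70 in W0 (limma adjusted p = 0.0327). The Htra1 call was lost without any 1 of the CTL arrays (adjusted p = 0.0865, 0.0982 and 0.0698 without replicates 1, 2 and 3), without W0 replicate 2 (0.11) and without W0 replicate 3 (0.116).

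A list of genes taken as FOXO targets repressed by insulin, other than Igfbp1, held 16 measured genes. In W0 against CTL 5 of them were called higher (4.99% of all genes) and none lower, with a list median of 0.30. Genes lower in W0 without a call included Klf15 (-0.77, limma adjusted p = 0.0879), Sesn1 (-0.43, 0.0849), Trim63 (-0.41, 0.0985) and Ppargc1a (-0.33, 0.107). In W1 against CTL none rose and 2 fell (0.787% of all genes, median of the list 0.07), and none was called in W5 (median -0.07). Pdk4 had levels of 9.81, 9.15 and 9.65 in W0, 7.06, 7.05 and 6.75 in W1, 6.80, 6.50 and 7.05 in W5, and 6.66, 6.58 and 6.99 in CTL. As for Igfbp1, its W0 kidneys were far above all others, with a log2 difference from CTL of 2.79 (limma adjusted p = 1.77e-06) and a level that fell by 2.58 in W1 compared to W0 (limma adjusted p = 1.49e-05). Txnip, which encodes a binding partner of thioredoxin, rose by 0.80 in W0 against CTL (limma adjusted p = 0.00212), and Sgk1, a kinase gene that also responds to aldosterone, by 1.08 (limma adjusted p = 0.0156). The Sgk1 call was lost without CTL replicate 2 (0.99, adjusted p = 0.0659).

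Pck1, which encodes the key enzyme of gluconeogenesis in the proximal tubule, was not called in W0 or W5 against CTL but was lower in W1. It fell by 0.87 in W1 against CTL (limma adjusted p = 0.00934) and by 1.28 in W1 against W0 (limma adjusted p = 0.00176), with mean levels of 10.88 ± 0.14 in W0, 9.61 ± 0.27 in W1 and 10.48 ± 0.21 in CTL (SD, n = 3 each). The call against CTL was lost without W1 replicate 2 (-0.76, adjusted p = 0.0557). The other genes of the list called against CTL, named after their values were seen, were Fbxo32 (0.74, limma adjusted p = 0.0186) and Sesn3 (0.43, limma adjusted p = 0.0314) in W0 and Trim63 (-0.57, limma adjusted p = 0.0498) in W1. The Fbxo32 call was lost without CTL replicate 2 or 3 or W0 replicate 1 or 3 (adjusted p = 0.065, 0.0649, 0.0508 and 0.0518), and that of Sesn3 without CTL replicate 2 or 3 or W0 replicate 2 (0.123, 0.0929 and 0.113). The Trim63 call was lost without any 1 array other than W0 replicate 1, W0 replicate 3 and W5 replicate 3 (adjusted p 0.0523 to 0.177), with a variance trend (0.0528) and with all probesets kept (0.0568). Trim63 levels were 4.29, 4.61 and 4.59 in W1 and 5.06, 5.09 and 5.06 in CTL. All were below the 95th percentile of the olfactory receptor genes (5.28).

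Growth hormone, through its receptor, JAK2 and STAT5, is the main inducer of Igf1. Of 13 measured genes of this pathway, 2 rose and 2 fell in W0 against CTL (4.99% and 4.41% of all genes), 1 fell in W1 (0.787%) and none was called in W5, with medians of 0.06, 0.09 and -0.00. Socs3, an inhibitor of JAK signalling that cytokines induce, rose by 1.43 in W0 (limma adjusted p = 0.00797), and Ptpn1, a tyrosine phosphatase gene, by 0.82 (limma adjusted p = 0.00508). Ghr, the growth hormone receptor gene, had levels of 8.11, 7.67 and 6.98 in W0, 7.53, 7.34 and 7.93 in W1, 8.21, 8.43 and 8.22 in W5, and 8.54, 8.50 and 8.50 in CTL. All W0 and W1 kidneys were below every CTL kidney. Ghr fell by 0.93 in W0 (limma adjusted p = 0.0175) and by 0.91 in W1 (limma adjusted p = 0.0428) against CTL, so that its level was still low at 1 week.

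Both Ghr calls were close to the threshold. That of W0 was lost without CTL replicate 1 (adjusted p = 0.056), CTL replicate 2 (0.0514) or W0 replicate 3 (-0.63, 0.0533), and that of W1 without any 1 array other than W0 replicate 1, W0 replicate 3 and W1 replicate 3 (0.0535 to 0.167), when quantile normalization was repeated (0.0511) and with all probesets kept (0.0501). Stat5a fell by 0.52 in W0 (limma adjusted p = 0.0299). Among the genes of the list without a call in W0, named after their values were seen, were Stat5b (-0.09, limma adjusted p = 0.689) and Jak2 (0.19, 0.481). Socs2 (0.28, 0.497) and Cish (-0.19, 0.794) were also among them. A link of this list to the fall of Igf1 was not tested. The Stat5a call was lost without CTL replicate 1, 2 or 3 (adjusted p = 0.0997, 0.0543 and 0.085) and without W0 replicate 1 or 3 (0.0787 and 0.116).

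Of 14 measured receptors and adaptors that share signalling with Igf1r, 1 rose in W0 and in W1 against CTL and none was called in W5, where 4.99% of all genes were called higher in W0 and 2.23% in W1. This was Shc1, the adaptor to the RAS pathway, with a log2 difference of 0.63 in W0 (limma adjusted p = 0.00455) and 0.49 in W1 (limma adjusted p = 0.0445). The W1 call was lost without any 1 array other than those of W0 (adjusted p 0.057 to 0.165) and with the arrays centred on their medians (0.112) or quantile normalized again (0.0721). Of 25 genes of PI3K, AKT and mTOR signalling, 3 rose in W0 (4.99% of all genes) and none was called in W1 or W5. With either direction counted, 9.4% of all genes were called, near the share of this list. The 3 genes were Eif4ebp1, an inhibitor of translation (0.60, limma adjusted p = 0.0446), Pik3r1, the regulatory subunit of PI3K (0.59, limma adjusted p = 0.0124), and the kinase gene Akt1 (0.57, limma adjusted p = 0.0181). The Eif4ebp1 call was lost without any 1 array other than CTL replicate 2 and W0 replicate 1 (adjusted p 0.053 to 0.172). That of Pik3r1 was lost without CTL replicate 2 (0.0571) or W0 replicate 3 (0.0513), and that of Akt1 without CTL replicate 2 (0.0783) or W0 replicate 1 (0.0551).

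Of 10 relatives that share the IGFBP domain, Ccn2, which encodes connective tissue growth factor, rose by 0.77 in W0 (limma adjusted p = 0.0274), 1 call where 4.99% of all genes were called higher, and none was called in W1 or W5. The Ccn2 call was lost without CTL replicate 2 (adjusted p = 0.115), CTL replicate 3 (0.0623) or W0 replicate 1 (0.50, 0.0712). None of 9 measured IGF2 mRNA-binding proteins and imprinted neighbours was called against CTL in any group.

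**Figure D4:**
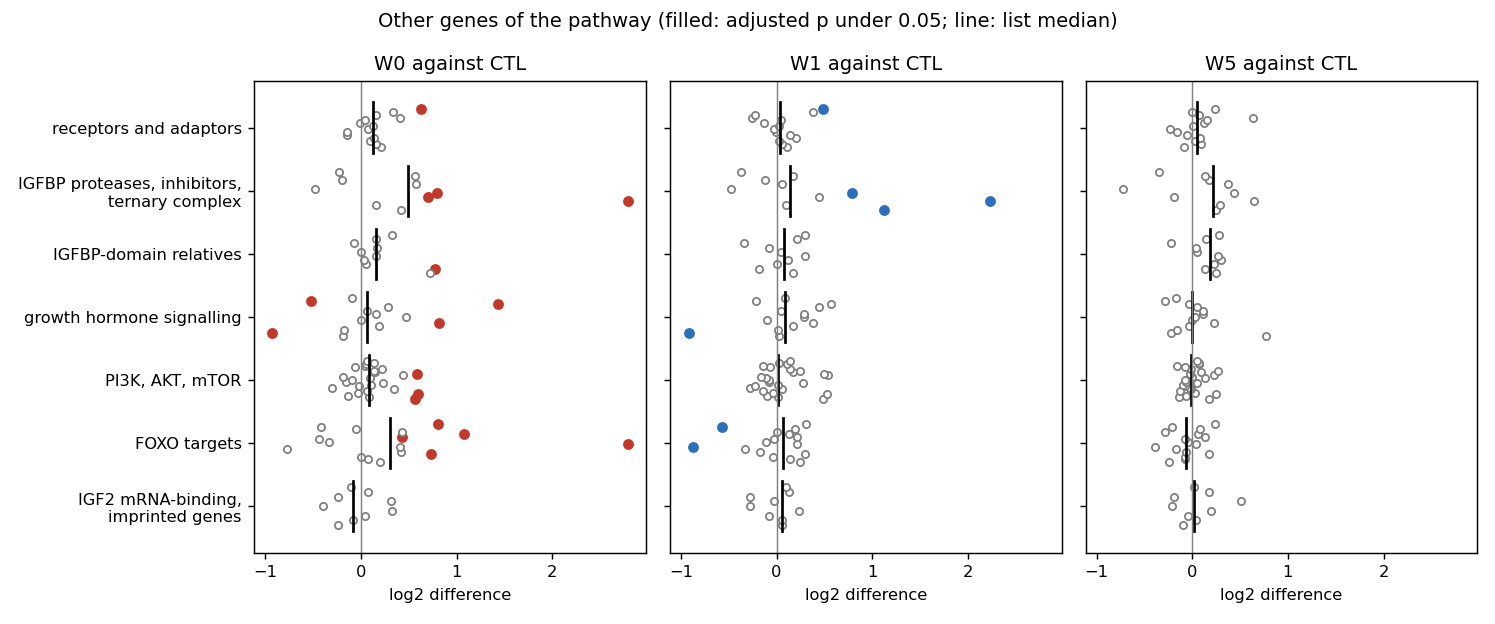
Log2 differences from CTL of the other genes of the pathway, by list, in W0, W1 and W5. Each point is a gene, filled points passed an adjusted p of 0.05 (limma, over all genes), and black lines are list medians. Adamts1 and Pdk4, each at 2.79, are the points farthest to the right in W0, and Adamts1 is still at 2.23 in W1 while no gene is filled in W5.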

How the data were processed

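The authors extracted RNA from kidney tissue, amplified it, hybridized it on Affymetrix Rat Gene arrays and deposited log2 values after RMA for 20944 probesets and 12 arrays. Software and batches are not given in the sources used here. A single gene symbol was found for 18510 probesets, several for 575 and none for 1859. A gene was represented by its single-symbol probeset of highest mean, with no filter on low levels, which left 18166 genes. Samples were grouped by the labels as 4 groups of 3 rats. Comparisons used limma (version 3.58.1, R 4.3.3) without variance trend, with a median standard error of 0.145 on 13.84 total degrees of freedom, and p-values were adjusted by Benjamini-Hochberg over all genes. The code was tested on simulated data.

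The genes of the axis and the lists of pathway and marker genes were chosen with earlier results of these data known, and no test was run over a list. All 10 genes of the axis were named. Of each other list, the called genes were counted and up to 4 with the largest log2 difference from CTL were named. For each gene of the axis called in any comparison, the 3 genes with the highest Pearson r were named, leaving out genes below the median of the olfactory receptors. Alternatives were centring, repeated quantile normalization, a variance trend, a robust prior, fits of the 2 groups compared, a replicate block, filters on low levels, other summaries of probesets, and each array left out. Promoters came from RefSeq, where all 10 genes had an entry. Protein sequences were not used here. Tables were prepared with pandas 2.3.3 and scipy 1.17.1 in Python 3.11.15.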

Additional observations from a re-analysis of the deposited data

How the results depend on the processing

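The rise of Igfbp1 in W0 against CTL (log2 difference 2.53 to 3.14), its fall in W1 and W5 against W0 and the decrease of Igf1 in W0 against CTL (-1.28 to -0.90) kept their direction and their call in all 23 alternatives. With 1 array left out, the number of genes of the axis called was 2 to 3 in W0, 0 to 1 in W1 and 0 to 0 in W5 against CTL, 1 to 2 in W1 against W0, 1 to 2 in W5 against W0, 0 to 0 in W5 against W1, and 1 to 2 by the F test. Over all genes these numbers were 1070 to 1789, 165 to 745 and 0 to 1 against CTL (1708, 548 and 0 with all arrays), 22 to 169 in W1 against W0 (96), 407 to 982 in W5 against W0 (916) and 3 to 152 in W5 against W1 (52). Without W0 replicate 1 and W1 replicate 1 together, 1 gene of the axis was called in W5 against W0 and 1 by the F test, and 58 of all genes in W1 against W0. With only the 2 groups compared, 19 genes were called in W1 against W0, 537 in W5 against W0 and 80 in W5 against W1. In W5 against W1, 30 genes were called after centring, 31 after repeated quantile normalization and 82 with a variance trend. In W5 against CTL, 1 gene was called with a variance trend and 1 without genes below the olfactory receptor median. Centring changed the split in W1 against CTL to 296 higher and 241 lower, from 405 and 143, and in W1 against W0 to 35 higher and 79 lower, from 41 and 55. The cause of these changes was not tested. Replicate numbers were not taken as pairs, since nothing in the labels ties them and the r of deviations of same-numbered arrays was -0.04 to 0.17 (median 0.06, above 0.1 in 7 of 18 pairs), although 11 of 12 arrays were closest to their own number, a hint from the data. With a replicate block 1860, 563 and 0 genes were called against CTL in W0, W1 and W5, with 3, 0 and 0 of the axis, 89 in W1 against W0, 970 in W5 against W0 and 70 in W5 against W1. The block ended the W1 against CTL calls of Ghr (adjusted p = 0.0567) and Trim63 (0.0654). The differences that changed sign were that of Igf2 in W0 against CTL (-0.32 to 0.013 with 1 array left out) and that of Igfbp3 in W0 against CTL (0.0077 after repeated quantile normalization, and -0.31 to 0.20 with 1 array left out). A filter at the median of all 1184 olfactory receptors was added after seeing the data. Of 1219 values of single genes under the alternatives, 94 lost a call, 4 gained one and 4 changed sign. With 3 arrays per group, differences near the threshold depend on single arrays, and levels near those of the olfactory receptors, as for Igf2, carry little signal over background.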
